A study of Mus musculus with 6 samples.

Results

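The genes described here are the receptor tyrosine kinases that are best known from neuroblastoma and the sympathetic nervous system, with the co-receptors of the GDNF family. The 9 members were taken by gene symbol from the 54532 genes listed: the Trk receptors Ntrk2 and Ntrk3, the GDNF family kinase Ret with its co-receptors Gfra1, Gfra2, Gfra3 and Gfra4, and the paired kinases Alk and Ltk. All 9 had reads in at least 1 library, and 4 of them (Ret, Alk, Ltk and Ntrk3) had a mean of at least 1 FPKM (fragments scaled to gene length and library depth), which was the condition for entering the test across genes.

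The study asked which genes change when the circular RNA circRtn4 is silenced in N2a cells, a mouse neuroblastoma line. RNA sequencing was done on 6 libraries, 3 from cells transfected with si-NC, a control siRNA, and 3 from cells transfected with si-circRtn4, a single siRNA against circRtn4. The labels give the strain as C57BL/6 for all 6 libraries. In the study C57BL/6 is named for the mice and the primary neurons, and no strain is named for the N2a line. The labels also name a serum-containing growth medium, whereas the general methods of the study place a change to retinoic acid medium after transfection. Whether these cells were differentiating is therefore not known here. Nothing in the labels says that libraries of a group came from separate cultures, so every p-value measures the spread between these libraries, which may be technical.

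Receptor tyrosine kinases sit in the cell membrane, bind a ligand outside and phosphorylate themselves and docking proteins inside, from which the Ras-MAP kinase and PI3 kinase cascades start. Ret does not bind GDNF family ligands alone: a GFRalpha protein anchored to the membrane binds the ligand first and presents it to Ret, with Gfra1 preferring GDNF, Gfra2 neurturin, Gfra3 artemin and Gfra4 persephin. Ntrk2 encodes TrkB, the receptor of BDNF, and Ntrk3 encodes TrkC, the receptor of the neurotrophin made from Ntf3. Alk and Ltk share the ligands Alkal1 and Alkal2, and activating mutations of ALK are a known cause of familial neuroblastoma.

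Reads recovered from the FPKM values numbered from 14100818 to 14748929 per si-NC library and from 13541198 to 15122063 per si-circRtn4 library. Across the 12749 genes tested with limma on log2(FPKM + 1), 556 were higher (4.36%) and 615 were lower (4.82%) with si-circRtn4 at a Benjamini-Hochberg adjusted p under 0.05, 1171 in all (9.19%). After rescaling to TPM, which fixes the sum of length-scaled values in each library, the split was 977 higher and 400 lower. The host gene Rtn4 was at 61.0, 66.8 and 69.8 FPKM with si-NC and at 50.1, 56.7 and 62.7 FPKM with si-circRtn4 (limma adjusted p = 0.216, or 0.0447 with the replicate number as a block). Gene totals do not separate reads of linear and circular transcripts, so these values do not measure circRtn4 itself. Of 14 neuroblastoma marker genes, 13 were tested, and the noradrenergic marker Hand2 was present in every library (178 to 238 FPKM). With si-circRtn4, 5 of these markers fell (Chga, Dbh, Th, Phox2a and Gata2), 1 rose (Elavl4), and their summed level was 844 to 1156 FPKM against 1320 to 1407 FPKM with si-NC. Markers of other cells were low: the summed glial markers reached 1.46 FPKM and the summed immune markers 1.38 FPKM. Summed fibroblast markers were 1.51 to 3.00 FPKM with si-NC and 4.34 to 6.59 FPKM with si-circRtn4, most of it from Pdgfrb, with Thy1 and Prrx1 at 0. The part of these marker shifts in the results below was not tested.

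Ret stood far above the other members. It was at 71.6, 80.6 and 88.5 FPKM with si-NC and at 74.7, 90.0 and 117 FPKM with si-circRtn4. Its mean of 87.1 FPKM over the 6 libraries was the highest of 52 receptor tyrosine kinase genes, ahead of the collagen receptors Ddr1 (27.1 FPKM) and Ddr2 (25.5 FPKM). Alk ranked 5 in that list with 10.6 FPKM, Ltk ranked 9 with 6.54 FPKM, Ntrk3 ranked 13 with 2.62 FPKM and Ntrk2 ranked 37. Only 18 of the 52 had a mean of at least 1 FPKM.

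**Figure D1:**
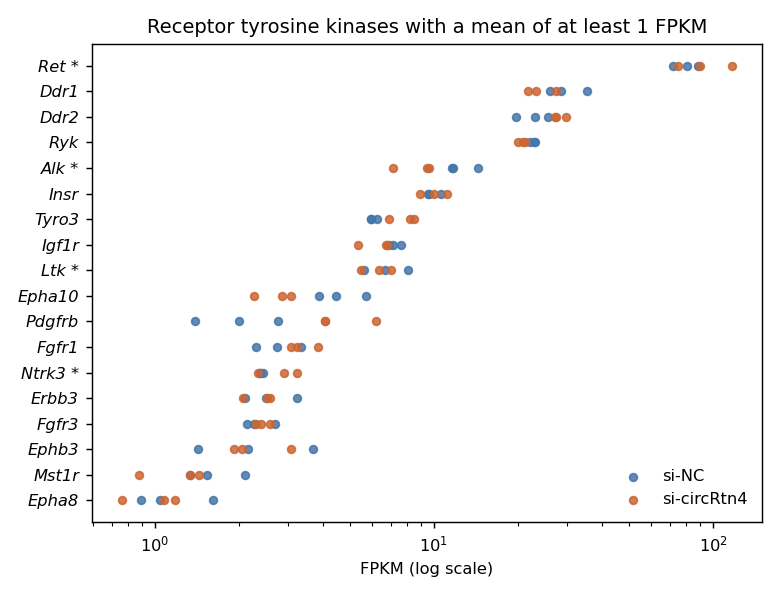
FPKM in each of the 6 libraries, on a log axis, of the 18 receptor tyrosine kinase genes whose mean reached 1 FPKM, a row per gene in order of the mean, with members starred and points coloured by group. Ret stands first with a mean of 87.1 FPKM, and Alk, Ltk and Ntrk3 rank 5, 9 and 13.

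On the FPKM scale, which is per length, the order of the members was Ret, Alk, Ltk, Ntrk3 and Gfra1, followed by the 4 others. Ret exceeded Alk by 8.18-fold in means and by 5.0- to 12.6-fold within single libraries, with ranges that did not overlap. Alk exceeded Ltk by 1.63-fold in means and in each of 6 libraries, but the ranges of the 2 genes over all libraries overlapped. Ltk was 2.50-fold above Ntrk3, Ntrk3 was 3.26-fold above Gfra1 and Gfra1 was 5.60-fold above Gfra2, each in 6 of 6 libraries and without overlap. Gfra2 overlapped Gfra4 and was above it in 4 of 6 libraries, and the ranges of Gfra4, Gfra3 and Ntrk2 overlapped one another, so the order below Gfra1 was not resolved beyond the spread. FPKM divides by the merged exons of a gene, 30170 bases for Ntrk3 against 3594 bases for Ltk, and Ntrk3 had 1034 to 1423 reads a library against 291 to 438 for Ltk. The longest coding transcript of Ntrk3 spans 19703 bases, so the Ntrk3 level per transcript depends on which isoforms were present, which gene totals do not show, and likewise kinase and truncated forms of the Trk receptors cannot be told apart.

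**Figure D2:**
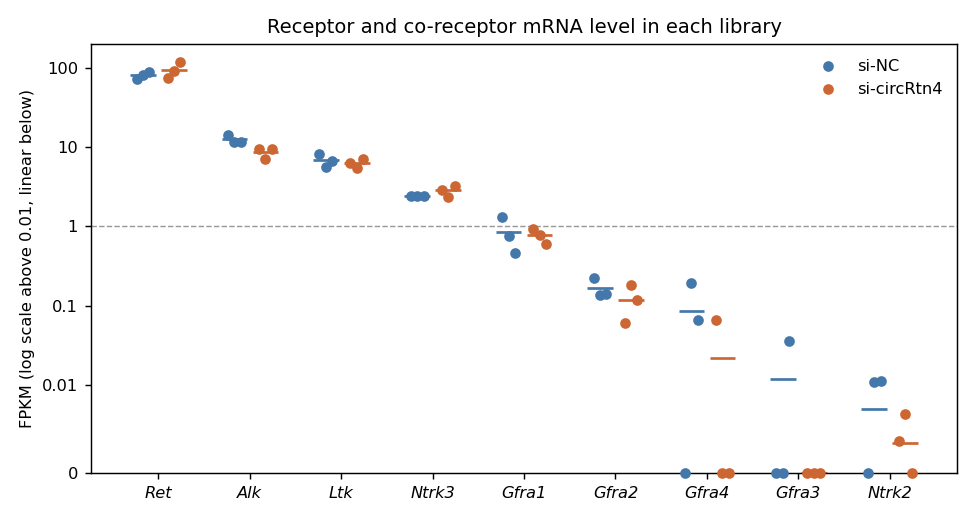
FPKM of the 9 members in each of the 6 libraries, on an axis that is linear near 0 and logarithmic above, with points for libraries, bars for group means and a dashed line at 1 FPKM. Ret lies at 71.6 to 117 FPKM in every library, Alk is the member with a mean of at least 1 FPKM whose groups do not overlap, and Gfra3, Gfra4 and Ntrk2 lie at or near 0.

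The GDNF co-receptors were scarce beside Ret. Gfra1, on the minus strand of chromosome 19 (GRCm38, 58235604 to 58455909), was at 1.31, 0.747 and 0.457 FPKM with si-NC and at 0.937, 0.774 and 0.603 FPKM with si-circRtn4. These groups overlapped, with 202 reads summed over the si-NC libraries and 187 over the si-circRtn4 libraries (exact permutation p = 0.9, two-sided, n = 3 per group). A gene on the opposite strand, Gm16277, overlaps 7.6% of the Gfra1 exon length, and whether reads were counted by strand is not given in the sources used here. Gfra2, on the plus strand of chromosome 14 (70890120 to 70979838), was at 0.225, 0.137 and 0.141 FPKM with si-NC and at 0.0596, 0.182 and 0.117 FPKM with si-circRtn4. That is 3 to 12 reads a library, and the groups overlapped (exact permutation p = 0.4, n = 3 per group). Gfra4 had 0, 6 and 2 reads with si-NC and 2, 0 and 0 reads with si-circRtn4, and Gfra3 had 1 read in 1 si-NC library and 0 elsewhere. A count of 0 allows up to 3 reads in a library, which is 0.089 to 0.099 FPKM for Gfra4 and 0.0968 to 0.108 FPKM for Gfra3, counting error only. No difference between si-NC and si-circRtn4 in Gfra3 or Gfra4 was detectable at this depth. Ret exceeded the summed level of the 4 Gfra genes in every library, by 46.8, 74.9 and 126 times with si-NC and by 70.4, 94.2 and 162 times with si-circRtn4.

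Ntrk2 was close to absent from the reads, with 0, 3 and 3 reads with si-NC and 1, 2 and 0 reads with si-circRtn4. Its highest value was 0.0111 FPKM, and 3 reads in a library equal 0.00999 to 0.0111 FPKM, so no difference could be seen at this depth. Of the 2 Trk receptors measured here, Ntrk3 was therefore the one with a level that could be tested.

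In the main fit, which has no block, no member passed the threshold with si-circRtn4. Of the 4 tested, 0 were higher and 0 were lower, where all genes gave 4.36% and 4.82%. With the replicate number as a block, 1 was lower (Alk) and 0 were higher, beside 9.75% and 9.29% of all genes. In voom on the recovered reads Alk was likewise the 1 called lower, beside 5.69% of all genes. In a fit with no filter on low values, 0 of 9 members passed, and only 0.738% of all 28442 genes were higher and 0.918% lower, so that this count says little about the members. At an unadjusted p under 0.05, 1 of the 4 members was lower (Alk) and 0 were higher, where 12.8% of all genes tested were lower and 13.1% higher.

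Alk was lower in every si-circRtn4 library than in any si-NC library. Alk lies on the minus strand of chromosome 17 (GRCm38, 71868972 to 72604627) and had 863 to 1677 reads a library. Its level was 14.3, 11.7 and 11.6 FPKM with si-NC and 9.58, 7.15 and 9.47 FPKM with si-circRtn4. The groups did not overlap, and the lowest of the 6 values was in si-circRtn4 replicate 2. The means were 12.5 ± 1.54 FPKM and 8.73 ± 1.37 FPKM (SD, n = 3), so that 69.6% of the si-NC level was measured with si-circRtn4. The difference on the log2(FPKM + 1) scale was -0.48 (SE 0.13, 95% interval -0.78 to -0.18), with a Benjamini-Hochberg adjusted p of 0.0589 in limma, which missed the threshold. The exact permutation p was 0.1, two-sided, the smallest that 3 against 3 libraries allow. Among all genes tested, 15.5% were lower and 16.2% were higher in the same sense, with groups that did not overlap.

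The call for Alk depended on the fit. With the replicate number as a block the same difference of -0.48 (SE 0.0848, 95% interval -0.69 to -0.27) had a limma adjusted p of 0.0195, with 9.75% of all genes lower and 9.29% higher in that fit. In voom on the recovered reads it was -0.51 with an adjusted p of 0.0233, with 5.69% of all genes lower. Over 14 alternatives the adjusted p ranged from 0.0195 to 0.162, and 2 of the 14 were under 0.05. Leaving out each library in turn gave adjusted p-values of 0.0868 to 0.135. By replicate number, Alk with si-circRtn4 was 0.669, 0.612 and 0.814 of its si-NC level, lower in 3 of 3 pairs. In bulk RNA, fewer cells that express a gene and less of its RNA per cell cannot be told apart.

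Ret did not differ beyond the spread between libraries. Ret lies on the minus strand of chromosome 6 (GRCm38, 118151745 to 118197718). Its means were 80.3 ± 8.44 FPKM with si-NC and 93.9 ± 21.3 FPKM with si-circRtn4 (SD, n = 3). The groups overlapped: the highest value, 117 FPKM, and the value of 74.7 FPKM below 2 of the si-NC values were both with si-circRtn4. The log2 difference was 0.21 (SE 0.16, 95% interval -0.17 to 0.58, limma adjusted p = 0.48), an interval that holds both a slight decrease and a moderate increase. By replicate number Ret was 1.04, 1.12 and 1.32 of its si-NC level, higher in 3 of 3 pairs. With the block its interval was 0.01 to 0.40 and the limma adjusted p was 0.127.

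Ltk, the closest relative of Alk, overlapped between the groups. Ltk lies on the minus strand of chromosome 2 (GRCm38, 119751320 to 119760431). It was at 8.07, 5.62 and 6.66 FPKM with si-NC and at 6.34, 5.49 and 7.04 FPKM with si-circRtn4. The log2 difference was -0.09 (SE 0.13, 95% interval -0.40 to 0.22, limma adjusted p = 0.736), and without si-NC replicate 1, the highest library, it was 0.029.

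Ntrk3 was at 2.38, 2.38 and 2.45 FPKM with si-NC and at 2.91, 2.35 and 3.24 FPKM with si-circRtn4. The si-NC libraries lay close together (2.40 ± 0.0392 FPKM, SD, n = 3), while the si-circRtn4 libraries were spread on both sides of them (2.83 ± 0.454 FPKM). The log2 difference was 0.16 (SE 0.11, 95% interval -0.10 to 0.43, limma adjusted p = 0.42). In voom on the recovered reads it was 0.25 (95% interval 0.005 to 0.486), with an adjusted p of 0.175.

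**Figure D3:**
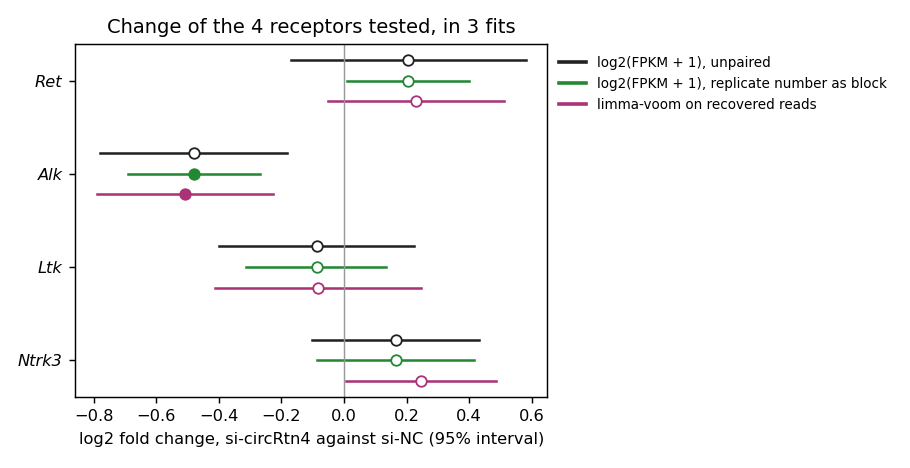
Difference of log2(FPKM + 1) between si-circRtn4 and si-NC for Ret, Alk, Ltk and Ntrk3, as points with 95% intervals in 3 fits: limma without a block, limma with the replicate number as a block, and voom on the recovered reads, with points filled where the adjusted p is under 0.05. The Alk intervals lie below 0 in all 3 fits and its point is filled in 2, whereas no point of Ret, Ltk or Ntrk3 is filled. Their limma intervals without a block cross 0, but the Ret interval with the block (0.01 to 0.40) and the Ntrk3 interval in voom (0.005 to 0.486) lie just above 0.

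The balance between the receptors was compared as ratios of FPKM within a library, 6 ratios in all among the 4 members tested. The Ret to Alk ratio was 5.0, 6.90 and 7.61 with si-NC and 7.80, 12.6 and 12.3 with si-circRtn4. The Alk to Ltk ratio was 1.77, 2.08 and 1.75 with si-NC and 1.51, 1.30 and 1.34 with si-circRtn4. The Alk to Ntrk3 ratio was 6.02, 4.90 and 4.75 with si-NC and 3.29, 3.05 and 2.92 with si-circRtn4. In all 3 of these ratios the groups did not overlap, with Alk lower relative to its partner in the si-circRtn4 libraries. The Ltk to Ntrk3 ratio did not overlap either, at 2.36 to 3.39 with si-NC and 2.17 to 2.34 with si-circRtn4, although the gap between the groups was small. Each of these 4 ratios had an exact permutation p of 0.1, the smallest possible with 3 against 3, and an adjusted value of 0.15 over the 6 ratios. The ratios of Ret to Ltk (exact permutation p = 0.3) and of Ret to Ntrk3 (exact permutation p = 0.9) overlapped between the groups. The ratios share genes and libraries, so they are not separate evidence. Alk alone already had groups that did not overlap, as did 15.5% (lower) and 16.2% (higher) of all genes tested. Ratios between other genes were not computed, so how often such ratios do not overlap is not known here.

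**Figure D4:**
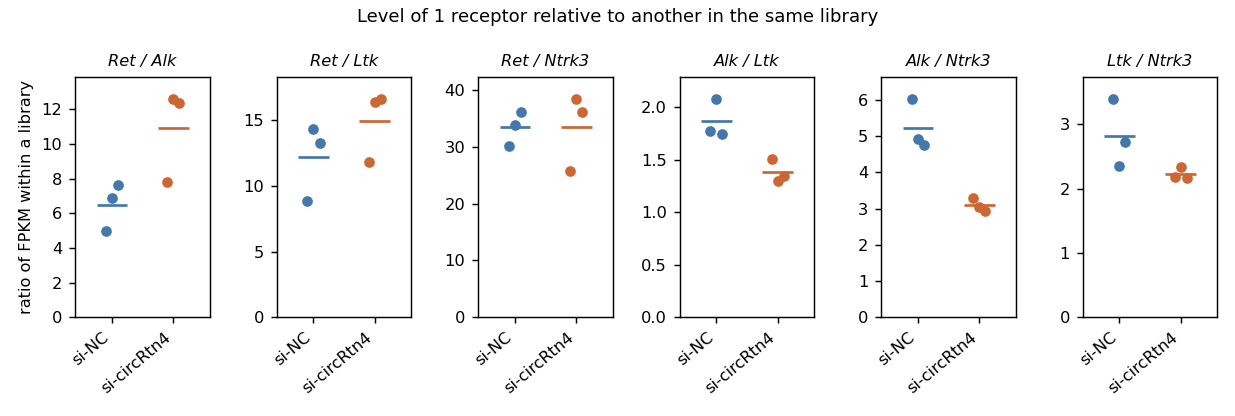
Ratios of FPKM between members within each library, a panel per ratio, with points for libraries and bars for group means. Ret to Alk lies at 5.0 to 7.61 with si-NC and 7.80 to 12.6 with si-circRtn4, and Alk to Ltk at 1.75 to 2.08 and 1.30 to 1.51.

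Short sequences complementary to the seeds of the 2 small RNAs of the study were searched in the 3' UTRs of the members. The microRNA miR-24-3p is shown because the series names circRtn4 as its sponge, and si-circRtn4 because an siRNA can act on other transcripts through its own seed. In the microRNA (RefSeq, GRCm38.p6) capitals mark bases 2 to 8, the seed. In the siRNA, printed as the strand the study lists, capitals mark the part that a guide taken as its reverse complement would pair with through bases 2 to 8.
mmu-miR-24-3p: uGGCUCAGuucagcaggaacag
si-circRtn4: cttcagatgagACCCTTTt

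The letters CTGAGCC, which pair with the miR-24-3p seed, occur in the longest 3' UTR of 19.6% of 10694 tested genes, and ACCCTTT, which pairs with the siRNA seed, in 12.5% (transcript strand only). Neither was found in the 3' UTRs of Ret (2108 bases), Alk (470 bases) or Ltk (282 bases). Among tested genes with 3' UTRs of like length, the member itself included, 26.7%, 9.3% and 4.7% hold CTGAGCC. Ntrk3, on the minus strand of chromosome 7 (78175959 to 78738012), has a 3' UTR of 16600 bases with 2 copies of CTGAGCC and 1 of ACCCTTT. Of the 9 tested genes with 3' UTRs of like length, Ntrk3 itself included, 77.8% hold the first and 66.7% the second. Ntrk2, which was hardly detected, has 1 copy of CTGAGCC in 5617 bases. The 4 matches are shown with their flanks from the GENCODE M21 transcripts (GRCm38), 5' to 3' on the transcript strand, with the match in capitals.
Ntrk3, miR-24-3p match, chr7:78191252-78191258 (-): tggcacctgtgCTGAGCCcttgccattct
Ntrk3, miR-24-3p match, chr7:78183680-78183686 (-): ctctttttagcCTGAGCCtgttgtggttt
Ntrk3, siRNA seed match, chr7:78190427-78190433 (-): tcttcaaaagcACCCTTTgctatcctatg
Ntrk2, miR-24-3p match, chr13:59130023-59130029 (+): ctgtgcccagaCTGAGCCtggagatttgc
None of the 4 matches is followed by an A. Such matches are a description of the letters, and Ntrk3, which holds 3 of the 4, was not called in either direction.

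Apart from Ptn, the ligand genes of these receptors were low or not detected in the same cells. Of 12 ligand genes 3 were tested, and 0 were called. Ptn, a heparin-binding cytokine discussed as an Alk ligand, was at 6.63 ± 1.29 FPKM with si-NC and 5.81 ± 0.466 FPKM with si-circRtn4 (SD, n = 3, limma adjusted p = 0.500). Its relative Mdk was at 1.92 ± 0.399 and 1.41 ± 0.254 FPKM (adjusted p = 0.309). Pspn, which encodes persephin, the ligand of the nearly absent Gfra4, was at 1.35 ± 1.04 and 1.06 ± 0.527 FPKM (adjusted p = 0.848). Artn, the ligand of Gfra3, was at 0.721 to 1.20 FPKM, and Gdnf itself at 0.0562 to 0.262 FPKM. Bdnf was at 0.0112 to 0.0791 FPKM, Ntf5, the other ligand gene of TrkB, at 0.350 to 0.849 FPKM, and Nrtn at 0 to 0.130 FPKM. Alkal1 had 1 read in 1 library, and Alkal2 and Ntf3 were at 0 in every library.

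Among membrane proteins that bind or regulate these receptors, 4 passed the threshold. Of 21 such genes 9 were tested, 3 fell and 1 rose with si-circRtn4 (median log2 difference -0.13, against 0.002 over all genes tested), beside 4.82% and 4.36% of all genes. With the block 1 rose and 4 fell, beside 9.29% and 9.75%. Ptprf, a receptor tyrosine phosphatase, fell from 38.7 ± 2.91 to 16.6 ± 1.97 FPKM (log2 difference -1.18, limma adjusted p = 0.00181). Sort1, a sorting receptor that binds pro-neurotrophins and Trk receptors, fell from 25.3 ± 1.64 to 12.0 ± 1.20 FPKM (log2 difference -1.02, adjusted p = 0.00221). Sdc3, a heparan sulfate proteoglycan that binds GDNF family ligands, fell from 30.1 ± 2.80 to 16.6 ± 0.987 FPKM (log2 difference -0.82, adjusted p = 0.0032). Lrig1, a membrane protein that restrains receptor tyrosine kinases including Ret, rose from 2.43 ± 0.0866 to 5.67 ± 0.773 FPKM (log2 difference 0.95, adjusted p = 0.00352). These 4 passed the threshold in each of 14 alternatives.

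Among the docking and adaptor proteins that couple the receptors to their cascades, 24 of 32 genes were tested, 3 fell and 0 rose (median -0.07), beside 4.82% and 4.36% over all genes. Irs1, a docking protein best known from insulin receptor signaling, fell from 13.5 ± 2.19 to 6.79 ± 1.18 FPKM (limma adjusted p = 0.0135). Dok3, of the docking family that includes Ret substrates, fell from 5.90 ± 1.21 to 2.75 ± 0.634 FPKM (adjusted p = 0.0203, or 0.0632 without si-NC replicate 2). Gab2 fell from 15.0 ± 1.79 to 10.2 ± 1.16 FPKM (adjusted p = 0.0318), a call lost when si-NC replicate 1 or 3 or si-circRtn4 replicate 1 or 2 was left out, with adjusted p-values up to 0.105. With the block, 3 rose (Irs2, Rapgef1 and Plcg1, chosen for naming after their values were seen) and 4 fell, beside 9.29% and 9.75% over all genes in that fit. Among 23 tested genes of the Ras-MAP kinase and PI3 kinase cascades (median -0.01), 1 rose, with and without the block, beside 9.29% and 4.36% over all genes. Pik3r1, a regulatory subunit of PI3 kinase, rose from 6.24 ± 0.112 to 9.39 ± 0.791 FPKM (limma adjusted p = 0.0108, or 0.0516 without si-NC replicate 2).

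Several feedback and target genes of the MAP kinase cascade were higher with si-circRtn4. Of 20 such genes 18 were tested, 6 rose and 0 fell with si-circRtn4 (median log2 difference 0.32), beside 4.36% of all genes that rose. With the block 10 rose and 0 fell, beside 9.29% of all genes that rose in that fit. Dusp4, a MAP kinase phosphatase, rose from 69.3 ± 6.87 to 146 ± 15.7 FPKM (limma adjusted p = 0.00283). Spred3 and Spry4, inhibitors of Ras signaling, rose from 9.41 ± 0.499 to 14.4 ± 0.392 FPKM (adjusted p = 0.00518) and from 6.38 ± 0.911 to 10.1 ± 0.833 FPKM (adjusted p = 0.0184). Etv4, an ETS transcription factor, rose from 42.9 ± 6.56 to 71.3 ± 5.64 FPKM (adjusted p = 0.0117), and Phlda1 from 2.38 ± 0.252 to 4.20 ± 0.762 FPKM (adjusted p = 0.0298). The sixth call, Dusp5, is named after its values were seen and rose from 9.59 ± 0.778 to 14.3 ± 1.92 FPKM (adjusted p = 0.027). Dusp5 passed the threshold in only 9 of 14 alternatives, with limma adjusted p-values up to 0.0973. The call of Etv4 was lost without si-NC replicate 2 (adjusted p = 0.0514), that of Spry4 without si-NC replicate 2 or si-circRtn4 replicate 1 or 3 (up to 0.0665), and that of Phlda1 when any library other than si-circRtn4 replicate 3 was left out (up to 0.0972). Other genes of this list did not pass the threshold: Dusp6 was at 42.2 and 48.9 FPKM, Egr1 at 12.8 and 12.7 FPKM and Etv5 at 41.3 and 39.9 FPKM in the si-NC and si-circRtn4 means. Etv1, named after its values were seen, went the other way, from 3.51 to 2.50 FPKM (log2 difference -0.37, limma adjusted p = 0.108). In voom Etv1 was called lower (adjusted p = 0.0318), beside 5.69% of all genes. The count fell to 2 without si-NC replicate 2 (1.28% of all genes then rose) and to 3 without si-circRtn4 replicate 1 (1.77%), and to 3 with no filter on low values.

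**Figure D5:**
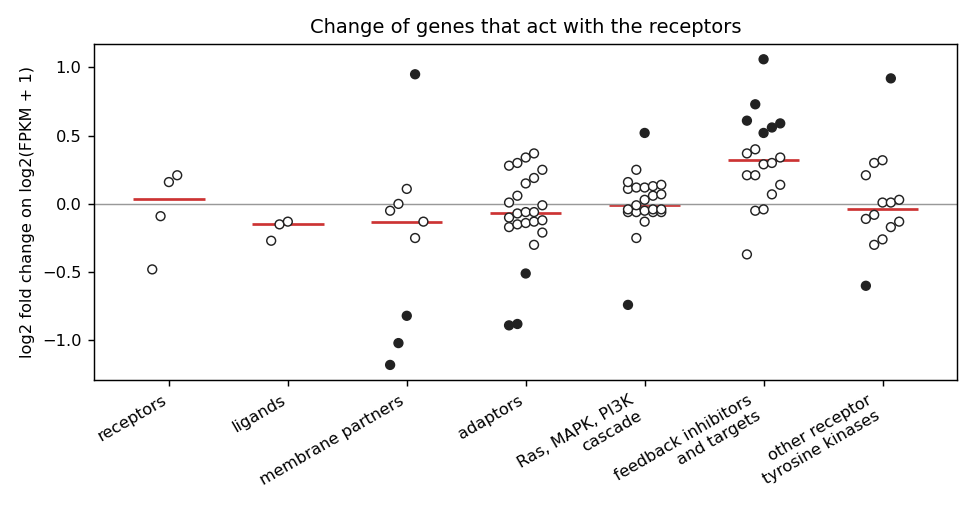
Differences of log2(FPKM + 1), si-circRtn4 against si-NC, for the tested members (receptors) and the tested genes of each list, a column per list, with points for genes, filled where the limma adjusted p is under 0.05, and a bar at the median. The feedback list has its median at 0.32 with 6 genes called higher. The 4 members have none called in this fit, which has no block.

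Of the 47 other receptor tyrosine kinase genes, 14 were tested, 1 rose and 1 fell (median -0.04), near the 4.36% and 4.82% over all genes. Pdgfrb, a receptor of platelet-derived growth factor that is also one of the fibroblast markers above, rose from 2.05 ± 0.690 to 4.77 ± 1.22 FPKM (limma adjusted p = 0.0316), and passed the threshold in 1 of 6 fits that left out a library, the one without si-NC replicate 1. Epha10, an ephrin receptor, fell from 4.67 ± 0.928 to 2.73 ± 0.416 FPKM (adjusted p = 0.0421), and passed in none of those 6 fits (adjusted p 0.0588 to 0.124). With the block, 3 rose and 2 fell, beside 9.29% and 9.75% over all genes.

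The genes whose log2(FPKM + 1) followed that of Ret most closely over the 6 libraries, among 10782 protein-coding genes, were Bex2 (r = 0.9917), Tmsb4x (r = 0.9885), Ugcg (r = 0.9838), Samd5 (r = 0.9837) and Sun1 (r = 0.9803). The 6 points share libraries and groups, and these values are a description of likeness over few points.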

How the data were processed

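The authors deposited FPKM values per gene for 6 libraries, with merged exon lengths and coordinates. The coordinates of 98.1% of 54532 genes equal those of GENCODE M21 (GRCm38), whereas the submitters' processing notes name Bowtie 0.12.2, mm8 and mm9, and the counting tool is not given in the sources used here. 6 columns of other samples were not used. Groups and replicate numbers came from the labels. FPKM multiplied by gene length gave whole reads (tolerance 0.01), which served for depth, for voom and for the read counts given per gene. Genes whose mean reached 1 FPKM were tested in limma 3.58.1 (R 4.3.3, trended variance) on log2(FPKM + 1), with Benjamini-Hochberg adjustment over all 12749 genes. Single values and ratios had exact permutation tests in scipy 1.17.1.

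Same-numbered libraries deviated together (r = 0.331, 0.19 and 0.226, against at most 0.009 for other pairs). Blocked values are therefore given where they change the call of a member, Rtn4 or Mycn, and blocked counts where they differ for a list. List genes that gained a call only with the block are not all named. Alternatives were another pseudocount, other filters, rescaling, quantile normalization, voom, the block and leaving out each library. Named genes were the members, Rtn4, the ligands, up to 5 called genes per list with the largest differences and groups that did not overlap, and the 5 genes most like Ret. The members and lists were chosen with earlier results of these data known, so no pattern here is independent support. Values of a few list genes are not reported here.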

Additional observations from a re-analysis of the deposited data

How the results depend on the processing

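Over 14 alternatives and 24 named genes, 291 of the resulting values kept direction and side of the threshold, 39 kept direction and lost the call, 3 gained a call (Alk and Rtn4 with the block, Alk with voom) and 3 reversed. Leaving out a library gave log2 differences of -0.20 to 0.029 for Ltk, reversed without si-NC replicate 1, and of -0.43 to 0.20 for Pspn, reversed without si-NC replicate 2 and, at 0.061, without si-circRtn4 replicate 2, none of them called. The cause was not tested. Members called lower numbered 1 with the replicate block and 1 with voom, against 0, and 0 to 0 when a library was left out. Adaptors called higher numbered 1 in TPM without genes under 200 bases, 2 in TPM, 3 with the replicate block and 2 with voom, against 0 of 24 in the main fit. Adaptors called lower numbered 0 with no filter and 2 to 3 when a library was left out. The shares of all genes called in each setting are given below. Feedback genes called higher numbered 10 in TPM, 10 with the replicate block and 3 with no filter, and 2 to 6 when a library was left out. In that list voom called 1 lower (Etv1). Other receptor tyrosine kinases called higher numbered 2 in TPM without genes under 200 bases, 3 in TPM, 3 with the block, 3 with voom and 0 with a filter of 0.1 FPKM or none, and those called lower 0 in TPM and with either filter and 2 with the block. Leaving out a library gave 0 to 1 higher and 0 to 0 lower in that list, and 0 to 1 cascade genes higher. Over all genes, calls numbered 1185 higher (9.29%) and 1243 lower (9.75%) with the replicate block, and 902 (7.08%) and 725 (5.69%) with voom. In TPM they numbered 977 (7.66%) and 400 (3.14%), and without genes under 200 bases 715 (5.79%) and 637 (5.16%). With a filter of 0.1 FPKM they numbered 390 (1.94%) and 434 (2.16%), and with no filter 210 (0.738%) and 261 (0.918%). When a library was left out, 1.28% to 3.19% of all genes were higher and 1.7% to 3.29% lower. The block changed no other call among the members. Depth limits Gfra2, Gfra3, Gfra4 and Ntrk2, each with at most 12 reads in a library.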
